A study of Mus musculus with 8 samples.

Results

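The mitochondrial ribosomal protein genes were examined in RNA sequencing of primary murine microglia, the resident macrophages of the brain. Members were the protein-coding genes whose symbol starts with Mrpl or Mrps followed by a digit in the GENCODE vM21 annotation, and all 78 such genes, of 52636 in the count table, were found by their Ensembl identifier. The cells were wild type (WT) and of the C57BL/6 strain in the labels (the study's methods name C57BL/6N pups), they were grown in DMEM with 10% serum and 10 ng/ml CSF-1, and cells behind 4 libraries were given 5 µg/ml LPS, a bacterial cell wall component that activates macrophages, while those behind the other 4 received vehicle, both for 24 h. CSF-1, a growth factor on which microglia depend, was present in both groups. The labels number the libraries 1 to 4 as biological replicates in each group without saying which share a culture or animal, and the p-values therefore measure the spread between these libraries.

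The mitochondrial ribosome translates the few proteins that mitochondrial DNA encodes, which are core subunits of the respiratory chain and of ATP synthase. Its 2 ribosomal RNAs come from mitochondrial DNA, but every protein of its large and small subunit is encoded in the nucleus, made in the cytosol and imported. Part of these proteins descend from bacterial ribosomal proteins, and the rest were added in the mitochondrial lineage.

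Of the 78 members, 51 encode proteins of the large subunit and 26 proteins of the small subunit. Names do not always follow position: Mrps30 and Mrps18a carry small-subunit symbols and sit in the large subunit, with which they were counted. The remaining member, Mrps36, is known as a subunit of the 2-oxoglutarate dehydrogenase complex and not of the ribosome. Read counts of 75 members were high enough to be tested, and Mrpl23, Mrpl53 and Mrps36 were not. Mrpl53 had no count in any library, and 88.0% of its exonic bases lie on the same strand as exons of another annotated gene. Mrpl23 stayed between 0.0 and 0.21 CPM, the usual measure of counts relative to library size, here scaled by the TMM factors that correct for library composition, and Mrps36 between 0.0 and 0.142. Libraries held 20071921 to 30604447 counts, of which 20451 to 39219 fell in the members.

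After LPS, 16 of the 75 tested members were higher (21.3%) and 26 were lower (34.7%) at an adjusted p under 0.05 in edgeR's quasi-likelihood test, while 33 were not called. Among all 13847 tested genes 64.1% were called, 30.3% of them higher and 33.8% lower, counting each as a share of all tested genes. Of the members 56.0% were called, a share near that of all genes, and no test of the difference was made. Most of their changes were small. The median log2 fold change of the members was -0.11, as was that of all tested genes, and 48 of 75 members lay within 0.5 of zero on the log2 scale. Only 7 members changed by at least 1 on the log2 scale, and the full range ran from -1.27 for Mrps5 to 1.71 for Mrpl52. The median absolute log2 fold change was 0.377 for the members against 0.773 for the 11902 tested protein-coding genes. The values of the 4 LPS and 4 vehicle libraries did not overlap for 42 members, 15 higher and 27 lower, against 60.2% of all tested genes.

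**Figure D1:**
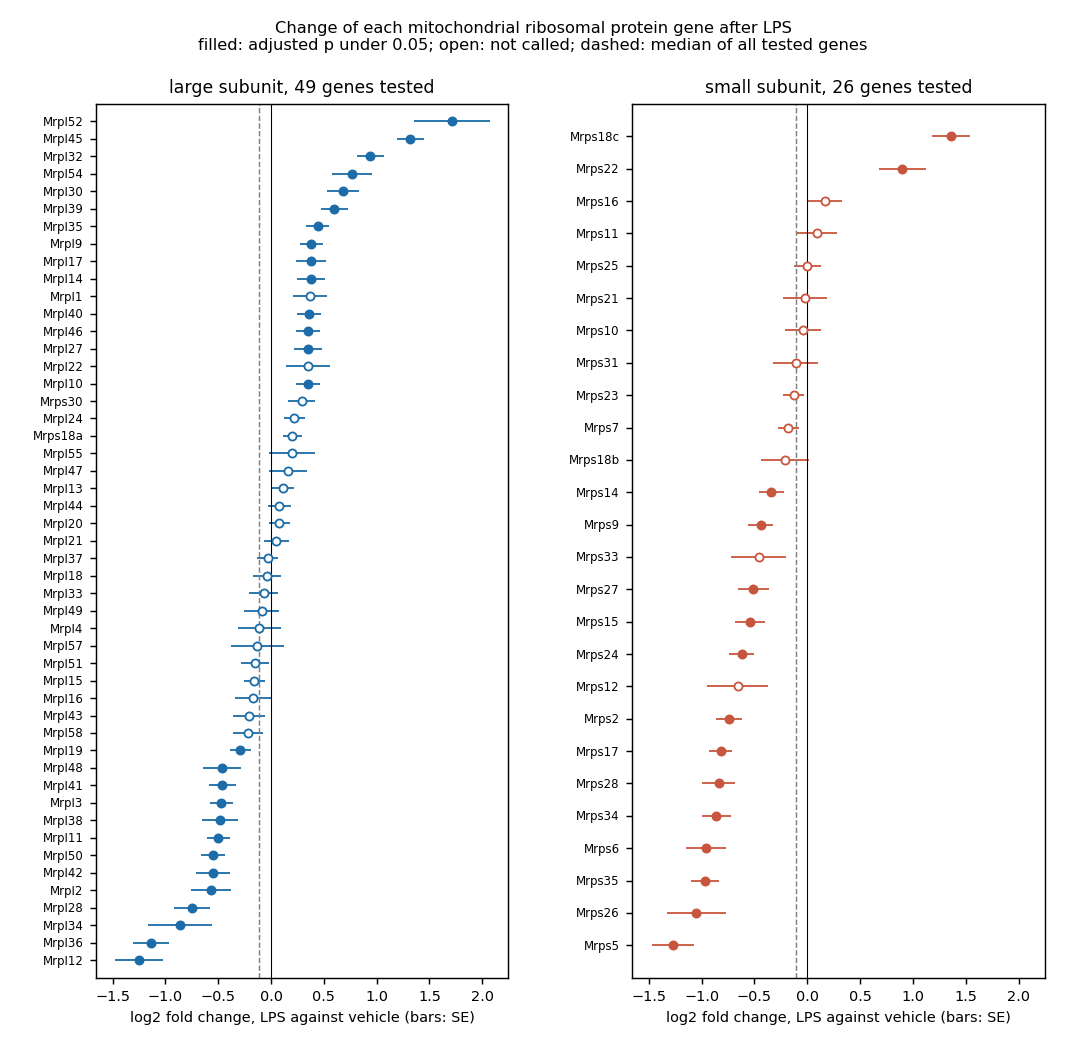
Log2 fold change (LPS against vehicle, horizontal axis) of the 75 tested members, one line per gene, in the large subunit (blue, 49 genes) and the small subunit (red, 26 genes); bars are standard errors, filled points have an adjusted p under 0.05, and the dashed line is the median of all tested genes at -0.11. Large-subunit genes lie on both sides of the line, while 19 of the 26 small-subunit genes lie below it.

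Among the members, which carry the Mrp symbols, the counts were different in the subunits. Of 49 tested large-subunit genes 14 rose (28.6%) and 13 fell (26.5%), with a median log2 fold change of 0.05, but only 7 rose with upper quartile scaling and only 7 to 8 fell when any vehicle library was left out. Of 26 small-subunit genes only Mrps18c and Mrps22 rose (7.69%), whereas 13 fell (50.0%), with a median of -0.45. Of all tested genes 30.3% rose and 33.8% fell. Within the large subunit the genes with a bacterial counterpart (8 of 29 higher, 8 lower, median 0.08) and those without (6 of 20 higher, 5 lower, median -0.06) were alike in their counts. Within the small subunit 9 of 16 genes with a bacterial counterpart and 4 of 10 without fell, with medians of -0.49 and -0.34. Mrps18a and Mrps18b, which like Mrps18c descend from bacterial S18, were counted with the genes without a bacterial counterpart. No test between these lists was made. The direction of a small change depends on the scaling, as the fold change of every gene shifts with the scale factor. Relative to the median of all tested genes, the large-subunit median was 0.16 to 0.18 above and the small-subunit median 0.28 to 0.35 below. These ranges cover TMM, RLE, upper quartile and total-count scaling and DESeq2. A shift common to all genes leaves such distances nearly unchanged, so their constancy is no check of the subunit difference.

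The ratio of large-subunit to small-subunit counts needs no scaling, as both sums come from the same library. It was 2.6, 2.42, 2.44 and 2.39 in vehicle replicates 1 to 4 and 3.46, 3.31, 3.32 and 3.32 in the LPS libraries. Every LPS library was above every vehicle library, with means of 2.46 ± 0.0953 and 3.35 ± 0.0716 (SD, n = 4 each). Without Mrpl52 and Mrpl45, the large-subunit genes that rose most, the ratio was 2.26 to 2.44 in vehicle and 2.85 to 2.89 after LPS, so the groups stayed apart. With the 5 mitoribosomal proteins of other names added to their subunits, among which Dap3 and Chchd1 of the small subunit rose and Gadd45gip1 of the large subunit fell, it was 1.92 to 2.1 in vehicle and 2.45 to 2.51 after LPS, again without overlap. In TMM-scaled counts the large-subunit sum was 805.0 to 882.5 CPM in vehicle and 878.7 to 949.4 CPM after LPS, where the ranges overlapped. The small-subunit sum was 323.3 to 361.3 CPM in vehicle and 264.7 to 284.8 CPM after LPS, where they did not.

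Summed over all members the picture depended on the denominator. The members took 0.146 to 0.151% of all counts with vehicle and 0.0801 to 0.102% with LPS. After TMM scaling the sums were 1142 to 1244 CPM and 1143 to 1232 CPM, which overlapped almost entirely. The 100 genes with the most counts took 27.1 to 29.3% of a vehicle library and 35.0 to 37.0% of an LPS library. The TMM factors were 1.208 to 1.32 and 0.701 to 0.833. How much of the members' smaller share goes with the larger share of these 100 genes was not tested. Scaled to total counts alone, 3 members were higher and 60 lower, beside 1988 higher and 8457 lower of all genes, with a member median of -0.78 and a median of all tested genes of -0.79. Upper quartile scaling gave 9 higher and 30 lower members (23.1% of the called members higher, against 38.1% with TMM), where of all called genes 39.6% were higher, against 47.2% with TMM, with a median of all genes of -0.27. In bulk RNA, fewer cells of a type and less RNA per cell cannot be told apart.

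**Figure D2:**
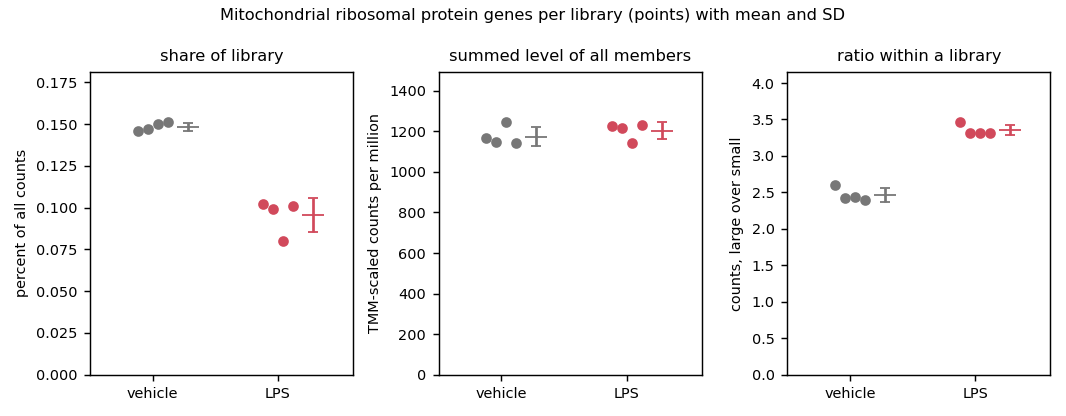
Members per library (points, 4 vehicle and 4 LPS libraries) with the mean and SD: their share of all counts in percent (left), their summed TMM-scaled CPM (middle) and the ratio of large-subunit to small-subunit counts (right). The share is lower after LPS (0.0801 to 0.102% against 0.146 to 0.151%), the scaled sums overlap, and the ratio is higher in every LPS library.

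Mrpl52, a large-subunit protein without a bacterial counterpart, rose most. Its gene (ENSMUSG00000010406) lies on chromosome 14 from 54426909 to 54429756 on the plus strand of GRCm38. Levels were 22.4, 13.7, 20.8 and 15.9 CPM in vehicle replicates 1 to 4 and 88.5, 59.4, 22.7 and 68.5 CPM in LPS replicates 1 to 4. LPS replicate 3 was just above the highest vehicle library, while the other 3 LPS libraries were far above it. The log2 fold change was 1.71 (SE 0.36, adjusted p = 0.00207, edgeR's quasi-likelihood test), and Mrpl52 had the widest spread within a group of all members, with an SD of 0.848 on the log2 scale among the LPS libraries. Leaving out 1 library at a time moved the log2 fold change between 1.47 and 1.99.

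Mrps18c and Mrpl45 rose by a similar factor with less spread. Mrps18c encodes 1 of the 3 mammalian descendants of the bacterial protein S18, the one that is placed at the site that S18 takes in bacteria. Its levels were 7.39, 8.68, 11 and 9.52 CPM in vehicle and 20.1, 21.1, 30.6 and 22.0 CPM after LPS, a log2 fold change of 1.36 (SE 0.18, adjusted p = 0.000109). The gene (ENSMUSG00000016833) lies on chromosome 5 from 100798627 to 100804471 on the plus strand, and 23.2% of its exonic bases are shared on the same strand with an annotated transcript of another gene, Gm43511. Mrpl45, which anchors the ribosome to the inner mitochondrial membrane near the exit of the peptide tunnel, measured 29.9, 27.9, 32.3 and 26.4 CPM in vehicle and 67.3, 66.6, 92.2 and 65.5 CPM after LPS, a log2 fold change of 1.32 (SE 0.13, adjusted p = 2.26e-05). The Mrpl45 gene (ENSMUSG00000018882) lies on chromosome 11 from 97315716 to 97329920 on the plus strand. The lowest LPS library of either gene was well above the highest vehicle library. Mrpl52, Mrps18c and Mrpl45 were also the only members called higher when total counts alone set the scale.

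**Figure D3:**
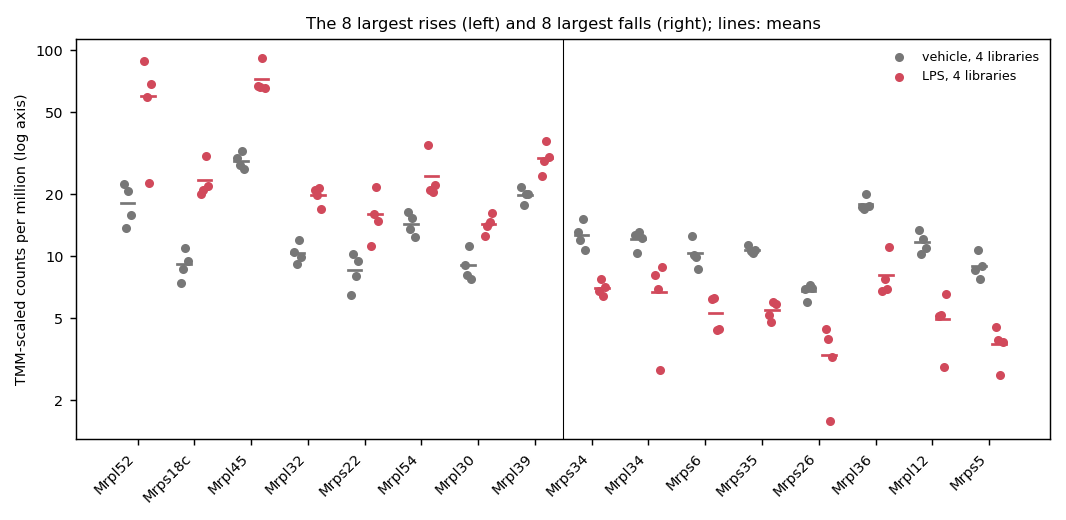
TMM-scaled CPM (log axis) of the 8 members with the largest rises (left) and the 8 with the largest falls (right) in each library; grey points are vehicle, red points LPS, and lines are group means. The groups do not overlap for any of the 16 genes. LPS replicate 3 is the lowest LPS library for Mrpl52 (22.7 CPM), Mrpl54, Mrps5, Mrpl12, Mrps26 (1.59 CPM), Mrps6, Mrpl34 (2.8 CPM) and Mrps34. It is the highest LPS library for Mrpl45, Mrps18c, Mrpl32, Mrps22, Mrpl39 and Mrps35.

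The other leading rises were smaller. Mrpl32, whose precursor is cut by the m-AAA protease before it enters the ribosome, went from 10.5, 9.13, 12 and 9.91 CPM to 21.1, 19.8, 21.5 and 17.0 CPM (log2 fold change 0.94, SE 0.13, adjusted p = 0.000167). Mrps22, a small-subunit protein without a bacterial counterpart, went from 6.51, 10.3, 7.99 and 9.44 CPM to 11.2, 16.1, 21.8 and 14.9 CPM (0.90, SE 0.22, adjusted p = 0.00494). Among the small-subunit members Mrps18c and Mrps22 were those called higher. Mrpl54 rose by 0.77 on the log2 scale (SE 0.19, adjusted p = 0.00506) from 12.4 to 16.4 CPM in vehicle, and LPS replicate 1 at 34.7 CPM stood above the other LPS libraries, which measured 20.5 to 22.1 CPM. Mrpl30, the counterpart of bacterial L30, rose by 0.68 (SE 0.15, adjusted p = 0.00325) from 7.74 to 11.2 CPM in vehicle to 12.6 to 16.3 CPM after LPS. Mrpl39, which resembles threonyl-tRNA synthetases in sequence, rose by 0.60 (SE 0.13, adjusted p = 0.00302) from 17.7 to 21.6 CPM to 24.5 to 36.2 CPM. With total counts alone, which moved the median of all genes to -0.79, Mrpl39 was at -0.09, and with TMM it lay 0.71 above the median of all genes. The remaining 8 members called higher, all of the large subunit, had log2 fold changes of 0.35 to 0.44. For Mrpl14 (0.38) and Mrpl17 (0.38) the call was lost when same-numbered libraries were treated as pairs, with adjusted p = 0.0694 and adjusted p = 0.0657. Conversely Mrpl1, at 0.37 with overlapping groups and adjusted p = 0.0683, reached adjusted p = 0.0367 in the paired fit.

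Mrps5, the counterpart of bacterial S5, fell most. Its gene (ENSMUSG00000027374) lies on chromosome 2 from 127587222 to 127606829 on the plus strand. It measured 8.54, 10.7, 7.77 and 8.98 CPM in vehicle and 4.55, 3.92, 2.66 and 3.84 CPM after LPS, a log2 fold change of -1.27 (SE 0.20, adjusted p = 0.000333). Mrpl12, the stalk protein that recruits translation factors and that also binds the mitochondrial RNA polymerase, measured 13.4, 10.3, 12.1 and 11 CPM in vehicle and 5.15, 5.17, 2.89 and 6.6 CPM after LPS (-1.25, SE 0.23, adjusted p = 0.00104). Mrpl36, a small zinc-binding protein with a bacterial counterpart, went from 17.3, 17.0, 20.1 and 17.6 CPM to 6.82, 7.73, 6.95 and 11.1 CPM (-1.14, SE 0.17, adjusted p = 0.000283). For each of these genes the highest LPS library was below the lowest vehicle library, and the call held in all 15 alternative fits at the same threshold.

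Mrps26, a small-subunit protein found only in mitochondria, went from 6.02 to 7.23 CPM in vehicle to 4.43, 3.98, 1.59 and 3.25 CPM after LPS (log2 fold change -1.05, SE 0.28, adjusted p = 0.00861). Mrps35 fell from 10.4 to 11.3 CPM to 4.79 to 5.97 CPM (-0.97, SE 0.13, adjusted p = 0.000141). Mrps6, the counterpart of bacterial S6, fell from 8.7 to 12.6 CPM to 4.38 to 6.26 CPM (-0.96, SE 0.19, adjusted p = 0.00139), and 19.9% of its exonic bases are shared on the same strand with other annotated genes, Slc5a3 among them. Mrps34, which the small subunit needs to be stable, fell from 10.7 to 15.2 CPM to 6.44 to 7.73 CPM (-0.86, SE 0.14, adjusted p = 0.000548), but 37.0% of its exonic bases are shared with exons on its strand and 63.4% with exons on the opposite strand. Mrpl34 fell from 10.4 to 13.1 CPM to 8.14, 6.97, 2.8 and 8.87 CPM (-0.86, SE 0.30, adjusted p = 0.0286), and the call was lost in 5 of the 8 fits that each left out 1 library. The 18 other members called lower had log2 fold changes of -0.84 to -0.29. Among them Mrps14 (-0.34) and Mrpl19 (-0.29) lost the call in the paired fit, with adjusted p = 0.054 and adjusted p = 0.066. Mrpl48 (-0.46, adjusted p = 0.0417) was called lower although LPS replicate 3 at 7.93 CPM lay inside the vehicle range of 7.81 to 9.32 CPM, and it kept the call in only 5 of the 15 alternative fits (adjusted p = 0.0725 in DESeq2 and adjusted p = 0.0674 with RLE scaling in edgeR). Mrps12, the counterpart of bacterial S12, was not called at -0.66 (adjusted p = 0.0725) although its groups did not overlap. LPS replicate 3 at 3.36 CPM was far below the other LPS libraries at 8.55 to 10.2 CPM. In 11 of the 15 alternative fits Mrps12 was not called either. It was called lower without LPS replicate 3, with upper quartile scaling, with total counts alone and with no filter on low counts.

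Of the 3 descendants of bacterial S18 only Mrps18c, described above, was called in the main fit. Mrps18a was called higher with RLE scaling (adjusted p = 0.0498, edgeR's quasi-likelihood test) and without vehicle replicate 3 or LPS replicate 3. With total counts alone Mrps18a (-0.47) and Mrps18b (-0.88) were called lower. Mrps18a, which sits in the large subunit, measured 25.7, 26.7, 30.9 and 27.6 CPM in vehicle and 32.6, 33.1, 30.5 and 31.1 CPM after LPS (log2 fold change 0.20, SE 0.09, adjusted p = 0.0891), and its groups overlapped. Mrps18b, in the small subunit, measured 3.4, 5.78, 4.73 and 5.57 CPM in vehicle and 4.49, 4.68, 2.98 and 4.71 CPM after LPS (-0.21, SE 0.23, adjusted p = 0.446), again with overlap. The count ratio of Mrps18c to Mrps18b within a library, which no scaling affects, was 2.18, 1.5, 2.33 and 1.71 in vehicle and 4.48, 4.51, 10.2 and 4.68 after LPS. Its mean log2 value was 1.55 higher after LPS. The ratio of Mrps18c to Mrps18a was 0.287 to 0.356 in vehicle and 0.617 to 1.0 after LPS, a log2 difference of 1.15. For Mrps18a to Mrps18b the log2 difference was 0.40. These ratios were chosen after the levels of the 3 genes had been seen and are given as a description, with no test. Exons on the opposite strand cover 30.5% of the Mrps18b exons.

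Other members with roles outside the usual pattern changed little. Mrps30 measured 15.3 to 18 CPM in vehicle and 15.6 to 21.2 CPM after LPS (log2 fold change 0.29, adjusted p = 0.0759). Mrpl58, a peptidyl-tRNA hydrolase that was incorporated into the ribosome and can free stalled peptides, was at -0.22 (adjusted p = 0.19). Mrpl55 was at 0.20 (adjusted p = 0.439) with LPS replicate 3 at 4.85 CPM below all vehicle libraries and the other LPS libraries at 8.99 to 9.75 CPM above them. None of these was called in the main fit, and their groups overlapped. Mrps30 was called higher with RLE scaling (adjusted p = 0.0448, edgeR's quasi-likelihood test) and without vehicle replicate 3 or LPS replicate 1. With total counts alone Mrps30 (-0.39, adjusted p = 0.0157) and Mrpl58 (-0.88, adjusted p = 0.000773) were called lower in the same test. Without LPS replicate 3 Mrpl55 was at 0.40 and was called higher (adjusted p = 0.0287, edgeR's quasi-likelihood test).

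Levels of different genes were compared per kilobase of exon, with the exons of all annotated transcripts of a gene merged. In vehicle the highest members were Mrpl28 with 25.5 ± 2.04, Mrps23 with 21.8 ± 1.15, Mrpl34 with 20 ± 1.95 and Mrpl20 with 17.7 ± 1.37 CPM per kilobase (SD, n = 4). The mean ± SD range of Mrpl28 lay above the others, while those of Mrps23 and Mrpl34 and those of Mrpl34 and Mrpl20 overlapped. The lowest tested members were Mrps10 with 0.415 ± 0.0292, Mrps33 with 0.664 ± 0.109, Mrpl48 with 1.05 ± 0.104 and Mrps35 with 1.24 ± 0.0441 CPM per kilobase. The ranges of these 4 genes did not overlap. Their ranks depend on the merged length, which was 8079 bases for Mrps10, 8152 for Mrpl48 and 8631 for Mrps35, but 1667 for Mrps33. The ranking was not repeated with the longest transcript as length. After LPS the order at the top was another one, with Mrpl52 at 53.9 ± 24.8, Mrpl54 at 29.8 ± 8.18, Mrpl45 at 28.1 ± 4.96 and Mrps18c at 21.8 ± 4.48 CPM per kilobase, while Mrpl28 fell to 15.2 ± 3.67 (log2 fold change -0.75, adjusted p = 0.0039). Mrps23 at -0.13 (adjusted p = 0.257) and Mrpl20 at 0.08 (adjusted p = 0.473) were not called, nor were Mrps10 at -0.04 (adjusted p = 0.85) and Mrps33 at -0.46 (adjusted p = 0.143). The members were shorter than tested protein-coding genes in general, with a median exonic length of 2530 against 4650 bases, and their median vehicle level was 6.04 against 4.34 CPM per kilobase.

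**Figure D4:**
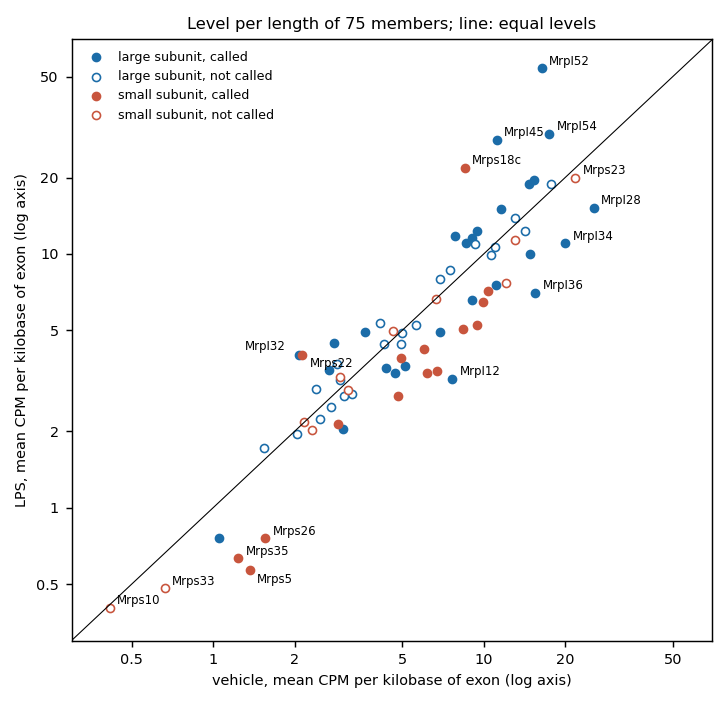
Mean level of the 75 tested members in vehicle (horizontal) and after LPS (vertical), in TMM-scaled CPM per kilobase of exon on log axes; blue is the large subunit, red the small subunit, filled points were called and the line marks equal levels. Mrpl52, Mrpl45, Mrpl54 and Mrps18c lie farthest above the line among genes of high level per kilobase. Mrps5, Mrps26 and Mrps35 lie below it among genes of low level per kilobase.

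The promoters of the members were searched for 4 short motifs of factors known to drive nuclear genes of mitochondria, on both strands and from 250 bases before to 50 bases after the transcript start in RefSeq (GRCm38.p6). A promoter was listed for 69 of 78 members. The core of the NRF1 motif, GCGCATGCG, was found in 7 members (10.1%), against 4.25% of 9449 tested protein-coding genes and 1.95% of all 27025 genes with a promoter. The ETS motif that GABP binds, CCGGAAG, was found in 26 members (37.7%), against 20.6% and 9.93%. The YY1 motif AAGATGGCG was found in 8 members (11.6%, against 3.69% and 1.64%), and the E-box CACGTG, which MYC binds, in 5 (7.25%, against 11.8% and 8.09%). These are matches of letters and not measured binding.

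By call, the NRF1 core was present in 5 of 15 members that rose, in 0 of 21 that fell and in 2 of 30 that were not called. The members with the match that rose were Mrpl9, Mrpl10, Mrpl17, Mrpl32 and Mrpl39, all of the large subunit, and those not called were Mrpl22 and Mrps18b. Of the risers, Mrpl32 and Mrpl39 kept their call in 14 of 15 alternative fits, but Mrpl17 in only 4. Mrpl9 and Mrpl10 lost it with upper quartile scaling and were called lower with total counts alone. The share of risers among all tested genes with the match was not counted. The ETS motif was present in 5 of 15 that rose, 5 of 21 that fell and 15 of 30 that were not called. The counts are small, the split by call was made after the values were known, and no test was made. The stretches around the NRF1 core are shown for all 7 members because this match differed most between risers and fallers. They are given 5′ to 3′ on the strand of the gene, with the match in capitals, and CGCATGCGC is the match on the other strand. Where the window overlaps an annotated exon only 10 bases were kept on each side, and the stretches of Mrpl9, Mrpl17, Mrpl32 and Mrpl39 overlap an exon of their own gene in GENCODE and that of Mrps18b an exon of its neighbour Ppp1r10.
Mrpl9, chr3:94443298-94443326, plus strand: aggcgcagctGCGCATGCGcggggtcctt
Mrpl10, chr11:97041422-97041480, plus strand: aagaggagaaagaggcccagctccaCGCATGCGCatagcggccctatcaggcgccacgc
Mrpl17, chr7:105811088-105811108, minus strand: ccgagttactGCGCATGCGtc
Mrpl32, chr13:14613106-14613134, minus strand: tttgacccttGCGCATGCGcaagaggggc
Mrpl39, chr16:84735351-84735379, minus strand: aaggagaggcGCGCATGCGcccccgcgtg
Mrpl22, chr11:58171621-58171649, plus strand: gcctcggactGCGCATGCGtatagtcagc
Mrps18b, chr17:35916646-35916674, minus strand: aacggcccgaCGCATGCGCactgggagca

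The ETS motif is shown for a pair of members that rose, Mrpl52 and Mrps22, and a pair that fell, Mrpl34 and Mrps26, since it was present near the start of genes that moved in opposite directions. CTTCCGG is the match on the other strand. The first base of the match lay 47 bases before the RefSeq start in Mrpl52, 11 in Mrps22, 37 in Mrpl34 and 14 in Mrps26.
Mrpl52, chr14:54426837-54426893, plus strand: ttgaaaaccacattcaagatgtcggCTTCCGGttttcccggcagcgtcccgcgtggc
Mrps22, chr9:98601680-98601715, minus strand: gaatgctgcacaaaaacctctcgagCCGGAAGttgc
Mrpl34, chr8:71464864-71464920, plus strand: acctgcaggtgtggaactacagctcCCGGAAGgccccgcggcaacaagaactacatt
Mrps26, chr2:130563733-130563756, plus strand: tccgcggccaCTTCCGGgccgggc

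Some members start close to another gene. A protein-coding gene that starts within 1000 bases and runs the other way was found for 18 of 75 tested members (24.0%), against 10.4% of 11902 tested protein-coding genes. In 8 of these pairs both genes were called, and in 6 of the 8 they moved the same way. The same shares over all such pairs were not counted, while 64.1% of all tested genes were called. The pairs are therefore listed as a description only. Mrpl32 (0.94) starts 75 bases from Psma2, a proteasome subunit, which rose by 1.00 on the log2 scale. Mrpl30 (0.68) starts 66 bases from Mitd1, which rose by 1.35, and Mrpl54 (0.77) starts 26 bases from Apba3, which rose by 1.29. Mrps5 (-1.27) was 128 bases from Zfp661 at -0.92, Mrpl2 (-0.57) was 207 bases from Klc4 at -1.79, and Mrpl41 (-0.46) was 935 bases from Pnpla7 at -3.31. The pairs of opposite direction were Mrpl40 (0.36) with Hira (-0.71) and Mrps34 (-0.86) with Eme2 (0.53). Mrps18c (1.36), 29 bases from the helicase gene Helq, rose without it, as Helq was at 0.11 (adjusted p = 0.625). These pairs were looked at after the values were known.

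Counts of members that overlap other genes may hold reads of those genes, as the strand setting of the counting is not given in the sources used here. Only uniquely aligned reads were counted, so reads from sequence that recurs in another gene can be missing instead. At least 20% of the exonic bases were shared with another gene on the same strand for 3 members and on the opposite strand for 8, and at least 20% of the 50-base windows recurred in another gene for 2, Mrpl22 and Mrpl27. Without these, 64 members were tested, of which 14 were higher and 23 were lower.

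The 5 mitoribosomal proteins whose symbols do not follow the Mrp pattern were all tested, and they also moved both ways, with a median of 0.10. Dap3, a GTP-binding protein of the small subunit, rose from 20.3, 18.9, 18.4 and 21.1 CPM to 35.6, 30.4, 35.2 and 31.3 CPM (log2 fold change 0.75, SE 0.10, adjusted p = 0.000135). Chchd1, also of the small subunit, rose by 0.43 (adjusted p = 0.01) from 13.8 to 17.1 CPM to 17.8 to 22.2 CPM. Ptcd3, a small-subunit protein that contacts the mRNA, fell by 0.60 on the log2 scale (adjusted p = 0.00396) from 17.2 to 23.1 CPM to 11.4 to 14.2 CPM. Gadd45gip1, of the large subunit, fell by 0.90 (adjusted p = 0.0331) from 11.4 to 12.8 CPM to 9.63, 6.32, 2.47 and 7.3 CPM, with 42.0% of its exons covered on the opposite strand. Aurkaip1 was not called at 0.10 (adjusted p = 0.47). The ribosomal RNAs mt-Rnr1 and mt-Rnr2 were near zero, at most 0.138 and 0.606 CPM in any library, and were not tested.

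Genes that build and serve the mitochondrial ribosome also moved both ways, with more falls than rises. Among 26 genes of assembly and rRNA modification 4 were higher and 12 lower (46.2%, median -0.14), among them the GTPases Noa1 (-1.70, adjusted p = 4.82e-06) and Mtg1 (-1.32, adjusted p = 0.000181) and the assembly factor Rcc1l (-1.37, adjusted p = 0.00584). Of 14 tested translation factors 2 were higher and 6 lower (42.9%, median -0.29). Guf1, an elongation factor of the LepA family, went from 20.2 to 27.6 CPM to 4.06 to 5.41 CPM (-2.33, SE 0.16, adjusted p = 1.84e-06). Lrpprc and Slirp, whose proteins form a complex that keeps mitochondrial mRNAs stable, moved in opposite directions. Lrpprc went from 56.4, 59.5, 59.6 and 60.0 CPM to 17.4, 18, 14.6 and 18.7 CPM (-1.78, SE 0.10, adjusted p = 7.02e-07), and Slirp went from 19.9, 22.1, 28.1 and 20.1 CPM to 48.9, 45.3, 55.1 and 46.0 CPM (1.11, SE 0.13, adjusted p = 6.27e-05).

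Mitochondrial aminoacyl-tRNA synthetases, which load the tRNAs used by this ribosome, gave 0 higher and 12 lower of 20 genes, with a median of -0.87. Mars2 (-2.06), Vars2 (-1.87) and Nars2 (-1.61) fell most, with adjusted p = 2.82e-05, 3.11e-05 and 2.09e-05. Of 9 genes of mitochondrial DNA transcription and maintenance 1 was higher and 5 were lower (median -0.63). The transcription factor Tfb2m fell by 1.67 on the log2 scale (adjusted p = 0.000855), the topoisomerase Top1mt fell by 1.64 (adjusted p = 0.000738), and the mitochondrial RNA polymerase Polrmt fell by 1.09 (adjusted p = 0.0249) from 17.5 to 22.7 CPM to 10.9, 11.2, 2.8 and 12.2 CPM. Of 11 nuclear regulators of mitochondrial genes 2 were higher and 6 lower (median -0.44). Gabpb1, a subunit of the ETS factor GABP, rose from 16.7 to 18.8 CPM to 31.8 to 46.2 CPM (1.11, SE 0.12, adjusted p = 4.24e-05), while Ppargc1b (-1.84, adjusted p = 0.00153) and Myc (-1.11, adjusted p = 0.0141) fell. For the factors whose motifs were searched, Nrf1 was at 0.16 (adjusted p = 0.138) and Gabpa, the DNA-binding subunit of GABP, at -0.05 (adjusted p = 0.645), and neither was called. Yy1 fell by 0.47 (adjusted p = 0.00115). Nrf1, Gabpa and Yy1 are given for their motifs and lie outside the rule by which the other genes were named.

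Mitochondrial DNA encodes the RNAs that the mitochondrial ribosome translates. Of its 15 listed genes 10 were tested, of which 7 were lower, 0 were higher and 3 were not called, with a median of -1.20. The largest falls were those of mt-Co2 (-1.66, adjusted p = 0.00199), which was at 1.21 to 1.89 CPM in vehicle and thus low throughout, mt-Nd2 (-1.64, adjusted p = 7.85e-05) and mt-Nd1 (-1.54, adjusted p = 5.09e-05). Of the 15 listed genes, 3 had at most 3 counts in every library. Only uniquely aligned reads were counted, and how much of the sequence of these genes recurs elsewhere was not measured. Together the 15 listed genes took 0.399 to 0.517% of a vehicle library and 0.113 to 0.236% of an LPS library. After TMM scaling their sums were 3120 to 3920 CPM in vehicle and 1390 to 3370 CPM after LPS, which overlapped. Set beside them, the nuclear genes of the respiratory chain gave 5 higher and 25 lower of 76 (median -0.18), and the proteins of the cytosolic ribosome 1 higher and 41 lower of 61 (median -1.11). The latter list leaves out the S6 kinases and Rps19bp1, which its symbol pattern also took in, a choice made after the values were seen. With them it had 4 higher and 47 lower of 71 and a median of -0.95. Without them 29 of its 90 genes were not tested, and 12 had at most 3 counts in every library. Its median therefore covers only the tested part. For these genes too, reads that did not align uniquely were not counted, and how much of their sequence recurs elsewhere was not measured. The mitochondrial ribosomal proteins, with 16 higher and 26 lower of 75 and a median of -0.11, had a median nearer to that of the respiratory chain genes than to that of the cytosolic ribosome, and no test between the lists was made.

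**Figure D5:**
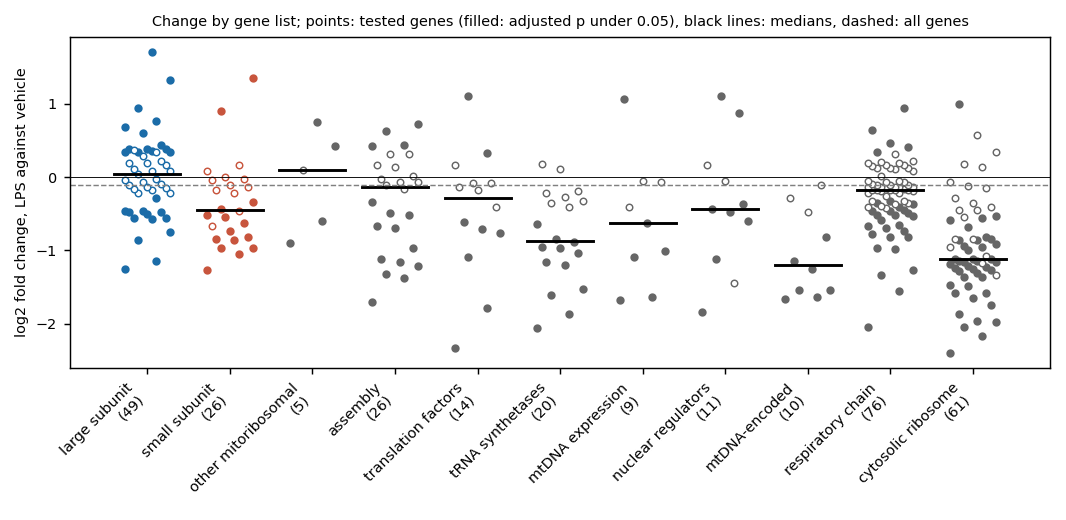
Log2 fold change (LPS against vehicle, vertical axis) of every tested gene by list, with the number of genes in brackets; filled points have an adjusted p under 0.05, black lines are list medians and the dashed line is the median of all tested genes at -0.11. The large subunit is centred near the dashed line (0.05) and the small subunit below it (-0.45), while the tRNA synthetases (-0.87), the genes of mitochondrial DNA (-1.20) and the cytosolic ribosome (-1.11, without the S6 kinases and Rps19bp1) lie lower.

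The libraries were checked for their cell type and for other changes that went along with LPS. All 10 microglial markers, such as Csf1r and C1qa, were detected and tested, 9 of them were lower after LPS, and their sum went from 11400 to 14800 CPM to 2560 to 3320 CPM. Of 9 tested LPS response genes, such as Nos2 and Il1b, all 9 rose. Of 15 cell cycle genes 13 fell, from a sum of 255 to 559 CPM to 38.8 to 44.9 CPM. Marker sums of other cell types were low: 20.6 to 47.7 CPM in vehicle and 41.4 to 124 CPM after LPS for astrocytes, 27.5 to 143 and 63.8 to 139 CPM for oligodendrocyte precursors, 150 to 205 and 188 to 238 CPM for oligodendrocytes, and 14.8 to 50.6 and 5.27 to 22.9 CPM for neurons. Of the 10 endothelial, mural and fibroblast markers 5 were tested and 4 of these rose. The sum of the list went from 33.4 to 74.0 CPM to 184 to 262 CPM. The part of these changes in the values of the members was not tested.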

How the data were processed

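RNA of 8 samples of primary murine microglia (4 vehicle, 4 LPS) was sequenced. The authors deposited raw counts per Ensembl gene, of uniquely aligned 50-base single-end reads, made with GSNAP on GRCm38 within HTSeqGenie, without normalization. The labels and the study's methods name different library kits. Symbols, positions and exon lengths came from GENCODE vM21.

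Counts were tested with edgeR 4.0.16 (TMM, filterByExpr at 10 counts per library and 15 in total, two-sided quasi-likelihood test) in R 4.3.3, with Benjamini-Hochberg adjustment over all 13847 tested genes and a threshold of 0.05. Tables were made in Python 3.11.15. On simulated counts edgeR recovered 80.6% of genes changed by 2, 59.7% by 1 and 4.55% by 0.5 on the log2 scale. Of its 100 calls 3.0% were false, and small changes can be missed. Of 156 calls by DESeq2 23.1% were false there. The simulation changed 66 or 67 of 13647 genes at each size, whereas 64.1% of the genes tested in the data were called. Its shares therefore do not give the share of changes found, or of false calls, in the data. Same-numbered libraries deviated together (r = 0.373, 0.196, 0.171 and 0.108 over 8010 genes), as did vehicle 2 with LPS 4 (0.146) and vehicle 4 with LPS 2 (0.137), the latter more than vehicle 4 with LPS 4. Equal numbers were treated as pairs in an alternative. No libraries of a group agreed within sampling noise. Alternatives were DESeq2 1.42.0, RLE, upper quartile and total-count scaling, filters, thresholds, the pairing and leaving out each library.

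The members and gene lists were chosen with earlier results of these data known. Named members were the 8 largest rises and falls, the S18 relatives and other unusual members, the 4 highest and 4 lowest per kilobase, untested ones, the 2 nearest the threshold with overlapping groups and the 2 with the widest spread. In each of the other lists the 3 largest called changes were named. A planned comparison of protein sequences was not made.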

Additional observations from a re-analysis of the deposited data

Results flagged for a closer look

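The highest or lowest library of a group stood apart from the other 3 by Dixon's criterion in 14 of 130 groups of 4 tested, where chance gives about 1 in 20. LPS replicate 3, the deepest library, was the one in 7 of them. It was high for Mrpl45 (92.2 CPM against 65.5 to 67.3 CPM) and for the ratio of Mrps18c to Mrps18b (10.2 against 4.48 to 4.68). The same library was low for Mrpl55 (4.85 against 8.99 to 9.75 CPM), Mrps18b (2.98 against 4.49 to 4.71 CPM), Mars2 (1.21 against 2.09 to 2.22 CPM), Polrmt (2.8 against 10.9 to 12.2 CPM) and the share of the library taken by members (0.0801 against 0.099 to 0.102%). LPS replicate 1 was high for Mrpl54 (34.7 against 20.5 to 22.1 CPM) and the ratio of large-subunit to small-subunit counts (3.46 against 3.31 to 3.32), and low for Mrps30 (15.6 against 20.5 to 21.2 CPM). Among vehicle libraries, replicate 3 was high for Mrps30 (18 against 15.3 to 15.5 CPM). Replicate 4 was high for the share of the listed mitochondrial DNA genes (0.517 against 0.399 to 0.418%). Replicate 1 was low for Lrpprc (56.4 against 59.5 to 60.0 CPM) and Mtg1 (5.92 against 7.24 to 7.4 CPM). The cause was not tested.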

How the results depend on the processing

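Of the 42 called members, 27 kept their call in every alternative fit other than total counts, and 21 in all 15 fits, the stricter thresholds below not being among these, of which 3 were higher (Mrpl45, Mrps18c and Mrpl52) and 18 lower. Total counts alone, in which 4 members called higher turned lower, gave 3 members higher and 60 lower (large subunit 2 and 36, small subunit 1 and 24) and a member median of -0.78, and put Mrpl1 at -0.32, Mrpl20 at -0.59, Mrpl39 at -0.09, Mrpl55 at -0.45, Mrps18a at -0.47 and Mrps30 at -0.39, against positive values with TMM. Upper quartile scaling gave 9 higher (7 in the large subunit) and Mrpl20 at -0.07. No filter on low counts gave 10 higher (8 in the large subunit). An adjusted p under 0.01 gave 9 higher and 17 lower members (large subunit 7 and 6). A minimum log2 change of 1 gave 5222 of all genes, and 3 higher and 4 lower members (large subunit 2 and 2, small subunit 1 and 2). Leaving out 1 library gave 7 to 13 large-subunit genes lower, with 7 to 8 when a vehicle library was left out, and 52.6% of the called members higher without vehicle replicate 3, beside 49.2% of all called genes. Mrps10, at -0.04, was at 0.01 in DESeq2, at 0.02 with RLE, and between -0.07 and 0.04 in the fits without 1 library (0.02 without LPS replicate 3). The share of the library was 0.117% in vehicle and 0.12% in LPS after TMM scaling. The median vehicle level, here the mean over libraries of each library's median over members (6.04 CPM per kilobase is the median of the members' means), was 7.99 in place of 5.82 CPM per kilobase with the longest transcript as length. With the replicate block (pairs of same-numbered libraries) 15 members were higher and 24 lower, and besides Mrps14, Mrpl14, Mrpl17, Mrpl19 and Mrpl1 no member changed its call. The cause of these differences was not tested. Counts of the tested members ranged from 14 to 1976 per library. Changes under about 0.5 on the log2 scale can be missed with 4 libraries a group, although Mrpl19 was called at -0.29.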
